A study of Mus musculus with 16 samples.

Results

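Brown adipose tissue (BAT) was set against epididymal white fat (eWAT), the visceral depot beside the epididymis, in RNA-seq libraries of mice with diet-induced obesity. The comparison used the 4 BAT and 4 eWAT libraries out of 16 in the series, chosen by their tissue labels and not by any measured value, and the 4 libraries of inguinal white fat (iWAT) were used as a second white depot where stated. The series also holds fat of the thigh, whose naturally beige character is the subject of its title. The mice were male C57BL66/J on high-fat feeding for every depot, with no allele, transgene or drug named in the labels, and no lean animals were analysed here. Whether each library is a mouse of its own is not stated, so p-values cover the spread among libraries, which may be technical, and the sources used here give no ages. Values are the authors' deposited FPKM, which divide fragment counts by gene length and library size, with an unknown number of reads behind each. Differences are BAT minus eWAT on log2(FPKM + 1), a scale that understates the change of low genes, and passing means an adjusted p (Benjamini-Hochberg) below 0.05 in limma over the 13996 genes that reached 1 FPKM in 4 or more of the 8 libraries.

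Brown adipocytes burn fatty acids and glucose in many mitochondria, and uncoupling protein 1 lets the proton gradient run down as heat instead of driving ATP synthase. White adipocytes store triglyceride and secrete hormones such as leptin and adiponectin. In obese mice, epididymal fat is known for an influx of macrophages that ring dying adipocytes and for a build-up of extracellular matrix. Visceral fat is also covered by mesothelium, the sheet of epithelium-like cells that lines the body cavity, which interscapular brown fat does not have. The labels do not name the brown depot.

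The 4 libraries of each depot resembled each other and the depots lay far apart, with a median Spearman correlation across genes of 0.972 within BAT, 0.968 within eWAT and 0.763 between them. The summed FPKM was 818815 to 864154 in BAT and 898404 to 993817 in eWAT, and the 10 most abundant genes took 27.6 to 32.1% of it in BAT and 18.1 to 21.0% in eWAT. BAT 3 and BAT 4 held transcripts of skeletal muscle: Ckm, the muscle creatine kinase, had 0.61, 0.448, 316 and 256 FPKM in BAT 1 to 4, against 0.641, 0.788, 2.78 and 0.542 FPKM in eWAT 1 to 4. One epididymal library, eWAT 3, held transcripts of the epididymis, with Crisp1, a sperm-coating protein, at 0, 0, 0 and 0 FPKM in BAT 1 to 4, against 0.061, 0.0292, 367 and 0.223 FPKM in eWAT 1 to 4. Prm1, a protamine of sperm cells, was listed at 0 in the BAT libraries and had 24.5, 1.10, 2.08 and 1.35 FPKM in eWAT 1 to 4. Each count of a gene list below was recomputed without BAT 3, BAT 4 and eWAT 3. Over all genes that left 2233 higher and 7695 lower, and it moved no count of the 19 main lists by over 1.5 times. In the BAT libraries 8 of the protein-coding genes of the mitochondrial genome, among them mt-Co1, mt-Cytb and mt-Atp6, were listed at 0. They were high in eWAT, with mt-Co1 at 7978, 8841, 9110.5 and 9727. Since mt-Nd1 stood at 31437, 30849, 39317 and 32301 FPKM in BAT 1 to 4, against 4253, 4404, 4230.0 and 4727 FPKM in eWAT 1 to 4, the zeros are given only as listed, with no fold.

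More genes passed on the eWAT side than on the BAT side. Of the 13996 genes, 2229 (15.9%) were higher in BAT and 8554 (61.1%) were lower. FPKM is relative to the whole library, so abundant transcripts of one depot can lower its other values. Across the 13996 genes, differences as deposited had a median of -0.55. What part of this shift arose in that way was not tested. After median-of-ratios scaling the median was -0.02, and 4808 genes (34.4%) were higher and 5167 (36.9%) lower. Of the genes lower as deposited, 291 were higher after scaling, and 0 went the other way. All 4 BAT libraries lay above all 4 eWAT libraries for 1973 genes (14.1%) and below them for 8087 genes (57.8%). A difference of at least 3 was reached by 98 of the genes higher in BAT and by 540 of the genes lower in BAT. Counts of lists below are read against these shares, and scaled values stand beside those as deposited.

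**Figure D1:**
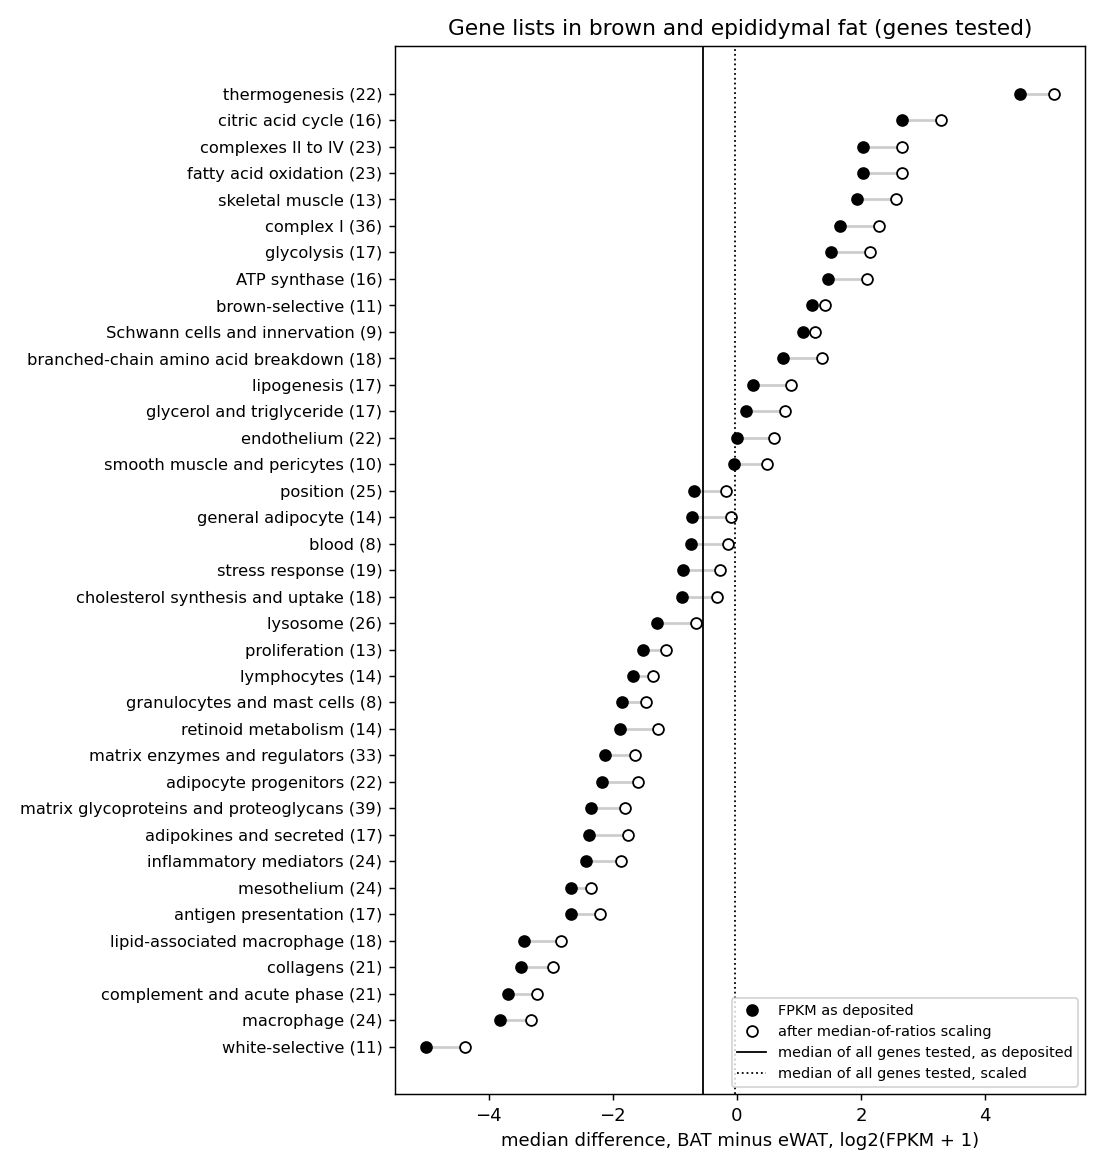
Median difference (BAT minus eWAT, log2(FPKM + 1)) of the tested members of each gene list with at least 8 of them, as deposited (filled) and after median-of-ratios scaling (open). The vertical lines mark the median of all genes tested, -0.55 as deposited and -0.02 scaled. Thermogenesis lies farthest right at 4.56, and the macrophage, complement and collagen lists lie between -3.81 and -3.49, to the right of the white-selective list at -5.0.

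Heat-producing genes were far higher in BAT. Of the 22 tested thermogenesis genes 21 were higher and 0 lower, with a median difference of 4.56 (5.11 scaled) and counts of 21 and 0 after scaling. Ucp1, the uncoupling protein itself (chromosome 8, 83290352 to 83298452, mm10), had 5172, 4931, 3771 and 4269 FPKM in BAT 1 to 4, against 0.0769, 0.147, 0.0231 and 0.0804 FPKM in eWAT 1 to 4. Its gap was the widest positive one among the genes named, 12.02 ± 0.11 (SE, n = 4 each, limma adjusted p = 1.7e-13). Fabp3, a fatty acid carrier of heart, muscle and brown fat, differed by 9.74, with 1394 to 2188 FPKM in BAT and 0.634 to 1.69 in eWAT, though its reads may be shared with a near-identical pseudogene. Cidea, a protein of lipid droplets in brown adipocytes, had 2011, 1886, 1652 and 1639 FPKM in BAT 1 to 4, against 2.93, 2.18, 3.27 and 2.62 in eWAT 1 to 4 (8.91, limma adjusted p = 4.5e-12). Cox8b and Cox7a1, muscle-type subunits of cytochrome oxidase, were higher, by 7.06 and 6.68. Another muscle-type subunit, Cox6a2, averaged 16.2 FPKM in BAT and 1.33 in eWAT and did not pass (1.37, limma adjusted p = 0.411). Cox8b had 7087, 5780.1, 5409 and 5294 FPKM in BAT 1 to 4, against 59.2, 46.6, 24.8 and 49.2 in eWAT 1 to 4. Cox8b and Cox7a1 were as high in BAT 1 and BAT 2, which hold few muscle transcripts, as in the others. The part of muscle transcripts in these values was not tested beyond leaving out BAT 3 and BAT 4.

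Regulators of the programme were higher too. Ppargc1a, the coactivator that drives mitochondrial biogenesis, had 9.82 ± 2.13 FPKM in BAT and 0.543 ± 0.24 in eWAT (SD, n = 4 each; 2.80, limma adjusted p = 1.06e-07). Prdm16, a transcriptional regulator of brown adipocyte fate, differed by 1.33 (limma adjusted p = 2.99e-05), and Ppara, a nuclear receptor that switches on fatty acid oxidation, by 4.30. The exception in the list was Adrb3, the receptor through which noradrenaline triggers heat production in mice. It had 142, 145, 77.9 and 104 FPKM in BAT 1 to 4, against 118, 152, 176 and 125 in eWAT 1 to 4, so the depots overlapped, and the difference was -0.31 as deposited (limma adjusted p = 0.193) and 0.31 scaled (limma adjusted p = 0.15). The brown-selective list, made of markers of brown as opposed to beige adipocytes, was split. Of its 11 tested genes 7 were higher, among them Mpzl2 (3.61), Oplah (2.46), Ebf2 (1.73), Zic1 (1.65) and Lhx8 (1.22). The 3 that were lower included Hspb7, a small heat shock protein, at 0.104, 0.0789, 2.53 and 4.06 FPKM in BAT 1 to 4, against 38.7, 51.3, 50.8 and 32.9 in eWAT 1 to 4 (-4.35, limma adjusted p = 0.000163). The BAT libraries with muscle transcripts carried the higher Hspb7 values of the 4.

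Dio2, type 2 deiodinase, makes active thyroid hormone inside the brown adipocyte and is induced through cyclic AMP. It had 130.5, 119, 60.2 and 163 FPKM in BAT 1 to 4, against 0.382, 1.58, 0.171 and 0.173 in eWAT 1 to 4 (6.24 ± 0.35, limma adjusted p = 3.93e-07). Its promoter is shown because the window from 250 bases before to 50 after its start (RefSeq, GRCm38.p6, chr12:90738989-90739288, minus strand) holds a full cyclic AMP response element, TGACGTCA, in capitals.
Dio2: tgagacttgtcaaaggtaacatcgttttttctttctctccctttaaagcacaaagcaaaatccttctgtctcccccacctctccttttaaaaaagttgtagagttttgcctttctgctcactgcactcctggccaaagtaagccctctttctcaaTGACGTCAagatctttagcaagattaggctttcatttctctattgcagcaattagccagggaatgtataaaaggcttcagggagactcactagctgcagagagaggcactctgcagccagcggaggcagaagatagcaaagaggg
This was 1 of 17 motifs looked for on both strands, and 1.79% of 32851 such windows hold it. The match describes the sequence and says nothing about which factor binds there.

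Genes of fuel use followed the same direction. Fatty acid oxidation, the breakdown of fatty acids to acetyl-CoA in mitochondria, had 20 of 23 genes higher and 1 lower (median 2.03; 22 and 1 scaled). Acaa2, the last enzyme of the spiral, had 1931, 1851, 1839 and 1820.4 FPKM in BAT 1 to 4, against 145, 120.0, 122 and 141 in eWAT 1 to 4 (3.81, limma adjusted p = 4.07e-10). Acadvl, the dehydrogenase for very long chains, differed by 3.78, and Hadhb, a subunit of the trifunctional protein, by 3.68. The gene that was lower, Acaa1b (-1.77), encodes a peroxisomal thiolase and not a mitochondrial one. The citric acid cycle had 16 of 16 genes higher, with a median of 2.66 (3.28 scaled). Citrate synthase, Cs, which starts the cycle, had 806, 879, 786 and 863 FPKM in BAT 1 to 4, against 121, 137, 150.1 and 145 in eWAT 1 to 4 (2.59, limma adjusted p = 4.18e-09).

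In the respiratory chain, 36 of 36 nuclear genes of complex I and 23 of 23 of complexes II to IV were higher, with medians of 1.66 and 2.03, and the same counts after scaling. Ndufv1, a complex I subunit, stood at 690.2 ± 68.8 FPKM in BAT and 115 ± 10.1 in eWAT, and Uqcrc2 of complex III at 1257 ± 54.2 FPKM in BAT and 154 ± 11.5 in eWAT (SD, n = 4 each). ATP synthase, the enzyme that the uncoupling protein bypasses, was less uniform, with 12 of 16 genes higher and 4 lower (13 and 3 scaled). Its catalytic subunits Atp5a1 (2.08) and Atp5b (1.97) were higher. Lower were Atp5g1 and Atp5g3, copies of the membrane-ring subunit c, and Atpif1, the protein that inhibits the enzyme. Atp5g1 had 8.07, 7.26, 32.2 and 27.6 FPKM in BAT 1 to 4, against 133, 99.4, 96.7 and 99.9 in eWAT 1 to 4 (-2.72, limma adjusted p = 0.00149), but near-identical copies of this gene make its reads uncertain. Atp5g3 differed by -0.99. Atpif1 stood at 17.9 ± 1.79 FPKM in BAT and 118 ± 23.9 in eWAT (SD, n = 4 each; -2.64, limma adjusted p = 6.72e-08).

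Glycolysis had 12 of 17 genes higher and 2 lower (13 and 1 scaled). Ldhb, the lactate dehydrogenase subunit of oxidative tissue, had 803, 676, 651 and 637 FPKM in BAT 1 to 4, against 87.7, 88.7, 96.5 and 72.6 in eWAT 1 to 4 (2.99), while the muscle-type subunit Ldha differed by 0.40. Glucose transporters went opposite ways: Slc2a4, the insulin-responsive GLUT4, was higher (1.06) and Slc2a1, the ubiquitous GLUT1, lower (-1.20; -0.72 scaled). In the glycerol and triglyceride list 6 of 17 genes were higher and 5 lower (12 and 3 scaled). Among those lower were Plin4 (-2.79), Mogat1 (-1.57) and Mgll (-1.18). Within that list the glycerol-phosphate shuttle, which passes cytosolic electrons to the respiratory chain, was higher at both steps. Gpd2, its mitochondrial enzyme, had 170.1, 184, 159 and 212 FPKM in BAT 1 to 4, against 5.999, 5.37, 6.94 and 5.47 in eWAT 1 to 4 (4.71, limma adjusted p = 4.7e-10), and Gpd1, the cytosolic one, differed by 2.68. The breakdown of branched-chain amino acids, another mitochondrial fuel of brown fat, had 15 of 18 genes higher and 1 lower, with small differences (median 0.75). The gene that was lower was Bcat2, the transaminase of the first step (-0.86; -0.24 scaled).

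Of 17 lipogenesis genes 7 were higher and 6 lower as deposited, and 9 and 3 after scaling. Among those higher were Acly (1.87), which cleaves citrate to acetyl-CoA, Acacb (3.69), an acetyl-CoA carboxylase, and Fasn (chromosome 11, 120805846 to 120824547), fatty acid synthase. Fasn had 2416, 2036, 1826 and 2343 FPKM in BAT 1 to 4, against 729, 699, 800.4 and 689 in eWAT 1 to 4 (1.55, limma adjusted p = 4.37e-07). Elovl6, which lengthens palmitate, had 60.3, 52.5, 44.0 and 68.0 FPKM in BAT 1 to 4, against 3.34, 3.36, 5.63 and 4.25 in eWAT 1 to 4 (3.48). Among those lower were the desaturases Scd2 (-3.43) and Fads1 (-2.46) and the malic enzyme Me1 (-1.42). Scd1, the main stearoyl-CoA desaturase of adipocytes, had 1352, 1411, 1721 and 2515 FPKM in BAT 1 to 4, against 4233, 4982, 0 and 6173 in eWAT 1 to 4, where the zero is as listed. With all libraries it did not pass (1.5, limma adjusted p = 0.67), and without eWAT 3 it was lower in BAT (-1.58, limma adjusted p = 0.000163). Cholesterol synthesis and uptake had 17 of 18 genes lower as deposited but 8 after scaling, with medians of -0.88 and -0.31, where those of all genes were -0.55 and -0.02.

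Within several families, related genes differed in opposite directions between the depots. Among 20 pairs of related genes with both members tested, 10 had the first member higher and the second lower in BAT. Ucp2, an uncoupling protein homologue that is abundant in macrophages, had 26.3, 28.0, 22.2 and 22.9 FPKM in BAT 1 to 4, against 621, 445, 319.6 and 578 in eWAT 1 to 4 (-4.21), opposite to Ucp1. Of the carnitine palmitoyltransferases that admit fatty acids to mitochondria, Cpt1b, the muscle form, had 537, 633, 420.5 and 627 FPKM in BAT 1 to 4, against 3.06, 3.62, 2.26 and 2.58 in eWAT 1 to 4 (7.15). The liver form Cpt1a was lower in BAT, at 5.82 ± 1.11 FPKM in BAT and 33.5 ± 2.64 in eWAT (SD, n = 4 each; -2.35). The same split held for the lipid droplet proteins Cidea and Cidec (-1.93), the fatty acid carriers Fabp3 and Fabp5 (-2.79), the elongases Elovl3 (3.85) and Elovl1 (-2.80), the pyruvate dehydrogenase kinases Pdk4 (4.64) and Pdk3 (-2.50), and the hexokinases Hk2 (1.55) and Hk3 (-2.83). The remaining pairs were Slc27a2 and Slc27a1, Kcnk3 and Kcnk6, and Ppara and Ppard. After scaling 9 of the 10 pairs still passed both ways, and Ppard, at -0.19, did not (limma adjusted p = 0.0759).

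**Figure D2:**
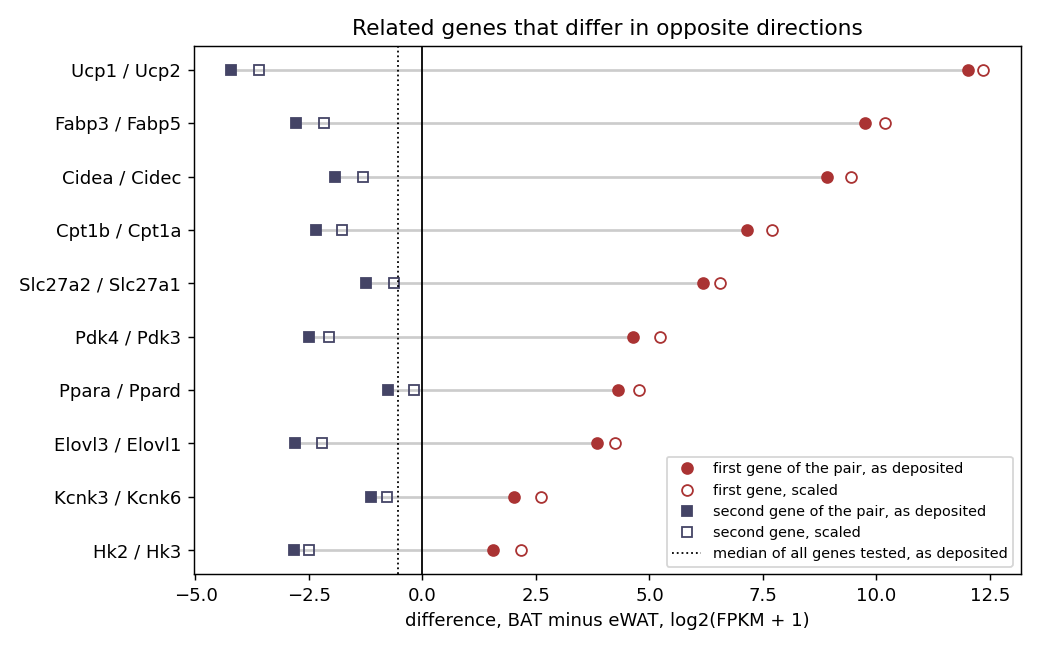
Differences (BAT minus eWAT, log2(FPKM + 1)) of the 10 pairs of related genes that passed in opposite directions, with circles for the first gene and squares for the second, filled as deposited and open after scaling. The widest pair is Ucp1 at 12.02 and Ucp2 at -4.21, and the dotted line marks the median of all genes, -0.55.

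White adipocyte identity genes were lower in BAT throughout. All 11 tested members of the white-selective list were lower, both as deposited and scaled, with a median of -5.0. Lep, the leptin gene (chromosome 6, 29060220 to 29073877), had 41.4, 50.2, 41.4 and 50.5 FPKM in BAT 1 to 4, against 1619, 1588, 1403 and 1796 in eWAT 1 to 4 (-5.10 ± 0.11, limma adjusted p = 2.66e-10). Retn, which encodes resistin, differed by -6.05, Sncg, the synuclein of white adipocytes, by -6.56, and Slc7a10, a transporter of small neutral amino acids, by -5.89. Agt, angiotensinogen, the precursor of the pressor peptide, had 0.258, 0.28, 0.209 and 0.194 FPKM in BAT 1 to 4, against 116, 129, 117 and 73.5 in eWAT 1 to 4 (-6.44). Among 17 adipokines and secreted factors, 14 were lower and 3 higher (12 and 3 scaled). The 3 were Nampt (1.90), an enzyme of NAD synthesis, Nrg4 (1.29), a neuregulin that brown fat releases, and Vegfa (1.20), the growth factor of blood vessels. Adipoq, adiponectin, had 646, 671, 705 and 642 FPKM in BAT 1 to 4, against 3704, 3818, 3577 and 4006 in eWAT 1 to 4 (-2.50). Of 14 genes common to all adipocytes, 10 were lower and 3 higher as deposited, but 5 and 4 after scaling. Pparg, the master regulator of adipocyte differentiation, stood at 158 ± 26.9 FPKM in BAT and 148 ± 18.8 in eWAT (SD, n = 4 each) and did not pass as deposited (0.08), though it was higher after scaling (0.71, limma adjusted p = 0.000456).

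Most mesothelial genes were at or near 0 in BAT. Of the 24 mesothelial and visceral genes tested, 24 were lower, as deposited, scaled and without BAT 3, BAT 4 and eWAT 3, with a median of -2.67. For 6 of them all BAT libraries were listed at 0, and the median over the other 18 was -3.01. A further 7 of the 31 on the list were below the level filter. In this and all other lists, genes below 1 FPKM in every library of a depot passed that filter only through the other depot. Their direction was thus fixed by the filter, and counts that include them are descriptive. In bulk tissue, fewer cells of a type and less RNA per cell cannot be told apart, here and in every list below. Upk3b, a uroplakin of the mesothelial surface (chromosome 5, 136038496 to 136046487), had 0, 0.0101, 0 and 0 FPKM in BAT 1 to 4, against 20.2, 16.7, 17.6 and 15.6 in eWAT 1 to 4 (-4.20, limma adjusted p = 4.44e-10). Msln, mesothelin, the glycoprotein that names these cells (chromosome 17, 25748613 to 25754378), had 0, 0, 0 and 0.019 FPKM in BAT 1 to 4, against 21.9, 18.0, 14.1 and 15.5 in eWAT 1 to 4. Both genes were steady across the eWAT libraries and at or near 0 in each BAT library. Wt1, a transcription factor of mesothelium and visceral mesenchyme, was listed at 0 in the BAT libraries and had 2.42, 2.52, 3.08 and 2.94 FPKM in eWAT 1 to 4. Tcf21, a transcription factor of visceral and other white preadipocytes, was also listed at 0 in BAT and had 6.65, 4.62, 4.98 and 4.71 FPKM in eWAT 1 to 4. Muc16, Upk1b, Krt8 and Krt18 were likewise listed at 0 in BAT. The keratins were uneven in eWAT: Krt19 had 0.163, 0.11, 0.128 and 0.168 FPKM in BAT 1 to 4, against 15.6, 12.2, 24.0 and 9.71 in eWAT 1 to 4, and eWAT 3, the library with epididymal transcripts, was the highest for Krt19, Krt8, Krt18 and Prr15. Their part in these values was not tested beyond leaving out that library. Not every member was near 0 in BAT: Efemp1, a fibulin of fibroblasts, had 6.22, 4.97, 5.88 and 5.90 FPKM in BAT 1 to 4, against 157, 128, 139.7 and 132 in eWAT 1 to 4.

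**Figure D3:**
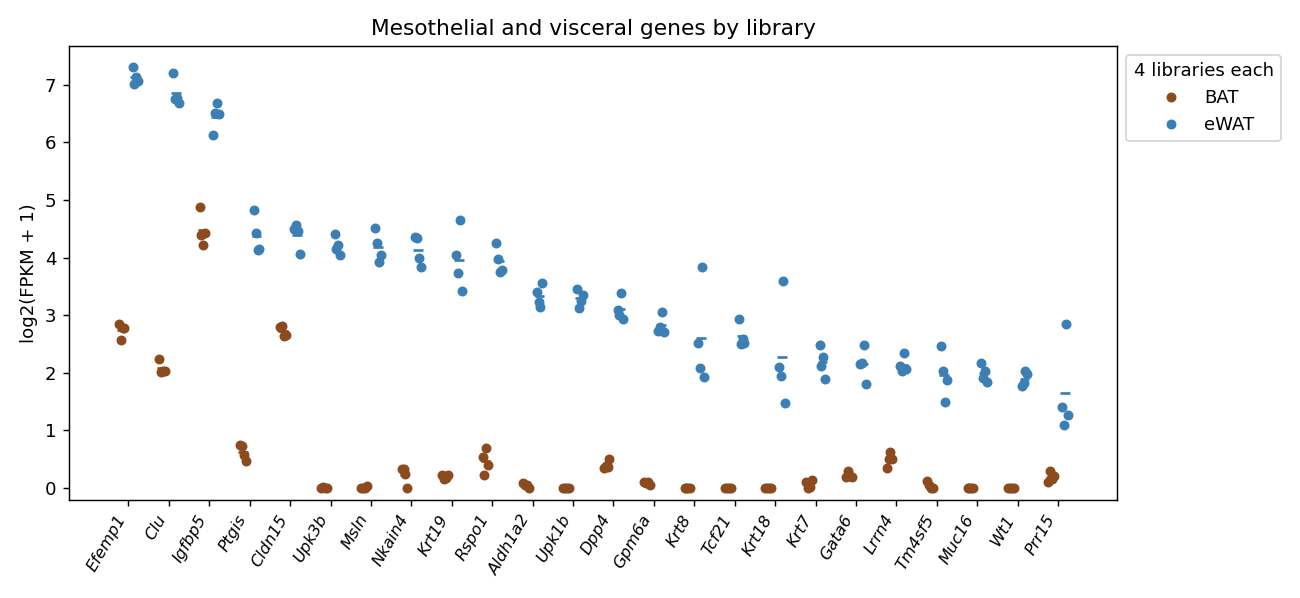
Level, as log2(FPKM + 1), of the 24 tested mesothelial and visceral genes in each of the 4 BAT (brown) and 4 eWAT (blue) libraries, with a line at the mean, ordered by level in eWAT. The depots do not overlap for any of the 24, and Krt8, Krt18 and Prr15 show 1 high eWAT library.

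Macrophage genes were lower in BAT without exception. Of the 24 tested, 24 were lower (median -3.81; -3.32 scaled), and their levels summed to 59.6 to 97.1 FPKM in BAT and 1755 to 3387 in eWAT. Cd68, a membrane protein of macrophage lysosomes (chromosome 11, 69664213 to 69666153), had 3.50, 2.99, 2.55 and 1.38 FPKM in BAT 1 to 4, against 219, 116, 83.5 and 171 in eWAT 1 to 4 (-5.31 ± 0.31, limma adjusted p = 3.78e-07). Adgre1, the F4/80 antigen, had 1.13, 0.946, 0.843 and 0.786 FPKM in BAT 1 to 4, against 35.6, 22.3, 19.5 and 35.0 in eWAT 1 to 4 (-3.87). The eWAT libraries differed among themselves in the same order for both genes, with eWAT 1 and eWAT 4 high and eWAT 2 and eWAT 3 low, and the depots did not overlap. Lyz2, the lysozyme of macrophages and neutrophils, stood at 17.3 to 28.9 FPKM in BAT and 670.1 to 1265 in eWAT, and Tyrobp, an adaptor of myeloid receptors, differed by -5.16.

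The genes of lipid-associated macrophages, the cells that take up lipid from dying adipocytes, showed some of the widest gaps. Of 18 tested, 16 were lower and 0 higher (16 and 1 scaled). Lgals3, galectin-3 (chromosome 14, 47367751 to 47386160), had 2.12, 2.61, 1.44 and 1.24 FPKM in BAT 1 to 4, against 572, 312, 272 and 833 in eWAT 1 to 4 (-7.33, limma adjusted p = 2.32e-07). Trem2, the lipid receptor of these macrophages (chromosome 17, 48346401 to 48354147), had 0.343, 0.322, 0.312 and 0.213 FPKM in BAT 1 to 4, against 104, 37.6, 29.3 and 86.3 in eWAT 1 to 4 (-5.46). The integrin Itgax, known as CD11c, had 0.0782, 0.123, 0.122 and 0.0754 FPKM in BAT 1 to 4, against 18.6, 10.3, 10.2 and 19.0 in eWAT 1 to 4 (-3.76). For each of these 3, eWAT 1 and eWAT 4 were again the high libraries. The 2 members that did not pass were Lipa, the lysosomal acid lipase (-0.22), and Plin2, a lipid droplet coat (0.09). Both are also made by adipocytes, and the part of adipocytes in the values of any member of this list was not tested. After scaling Plin2 was higher (0.72), and Lipa had the opposite sign (0.39) without passing. Mmp12, macrophage elastase (chromosome 9, 7344381 to 7369499), had 0.215, 0.663, 0.126 and 0.0591 FPKM in BAT 1 to 4, against 148, 55.6, 91.2 and 160.2 in eWAT 1 to 4 (-6.41, limma adjusted p = 1.32e-07). Gpnmb, a glycoprotein of lipid-loaded macrophages, had 0.304, 0.444, 0.316 and 0.238 FPKM in BAT 1 to 4, against 96.7, 33.6, 36.3 and 102 in eWAT 1 to 4 (-5.50).

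The promoters of 3 macrophage genes are shown because they hold a motif of a factor known from these cells, and they do not stand for the list. C1qc, a chain of complement C1q made by macrophages, had 7.12 ± 1.52 FPKM in BAT and 172 ± 41.7 in eWAT (SD, n = 4 each; -4.40). In the same RefSeq windows (GRCm38.p6), Mmp12 (chr9:7344147-7344446, plus strand) and C1qc (chr4:136892865-136893164, minus strand) hold GAGGAAGT, the core bound by PU.1, the ETS factor of the myeloid lineage, on the reverse strand, where it reads ACTTCCTC. Gpnmb (chr6:49036268-49036567, plus strand) holds TGACTCA, the site of AP-1. Capitals mark these matches.
Mmp12: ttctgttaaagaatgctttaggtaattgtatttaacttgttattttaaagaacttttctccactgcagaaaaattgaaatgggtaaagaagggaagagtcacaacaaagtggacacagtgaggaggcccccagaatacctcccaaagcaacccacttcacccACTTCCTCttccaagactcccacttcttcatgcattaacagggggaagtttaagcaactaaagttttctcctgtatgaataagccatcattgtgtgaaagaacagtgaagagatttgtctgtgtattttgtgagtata
C1qc: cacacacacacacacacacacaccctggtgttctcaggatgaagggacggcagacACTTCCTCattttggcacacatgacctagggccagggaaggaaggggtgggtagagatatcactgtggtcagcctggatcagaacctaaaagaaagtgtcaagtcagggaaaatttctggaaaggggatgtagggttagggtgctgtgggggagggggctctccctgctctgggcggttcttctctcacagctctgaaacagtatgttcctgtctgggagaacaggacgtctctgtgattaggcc
Gpnmb: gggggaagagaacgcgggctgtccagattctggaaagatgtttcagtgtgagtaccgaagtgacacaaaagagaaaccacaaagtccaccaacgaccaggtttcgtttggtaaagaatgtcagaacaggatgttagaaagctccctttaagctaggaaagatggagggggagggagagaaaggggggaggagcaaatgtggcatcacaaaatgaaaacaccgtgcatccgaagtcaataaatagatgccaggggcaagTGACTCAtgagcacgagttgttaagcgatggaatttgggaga
Of the 32851 windows 3.2% hold GAGGAAGT and 5.2% hold TGACTCA on either strand, and these genes and Dio2 were picked for their matches after their values were seen. The tested genes of both macrophage lists have 39 windows, of 32 genes out of 42, and 4 of these windows hold GAGGAAGT and 5 hold TGACTCA. Mmp12 has 2 windows, and the one shown is that with GAGGAAGT, while the other holds TGACTCA.

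Most chemokines and other mediators were lower. Of 24 tested, 21 were lower and 1 higher (21 and 2 scaled), while 12 more, among them Tnf, Il6 and Il1b, were below the level filter. Ccl2, which draws monocytes into tissue, had 0.501, 0.224, 0.586 and 0 FPKM in BAT 1 to 4, against 79.5, 38.1, 27.8 and 58.2 in eWAT 1 to 4 (-5.20, limma adjusted p = 2.42e-07). Ccl9 differed by -6.08 and Ccl6 by -5.83, both chemokines of myeloid cells in mice. Retnla, a resistin-like protein of alternatively activated macrophages that mouse white fat also makes, had 16.1, 8.67, 10.5 and 8.48 FPKM in BAT 1 to 4, against 1372, 1334, 987 and 1192 in eWAT 1 to 4 (-6.71). The exception was Cxcl14, a chemokine that brown fat secretes, at 17.8, 13.5, 10.5 and 9.20 FPKM in BAT 1 to 4, against 4.44, 2.92, 2.47 and 3.24 in eWAT 1 to 4 (1.67). Cxcl14 is not particular to BAT here, since it averaged 43.85 ± 6.31 FPKM (SD, n = 4) in iWAT, above both depots. In the fit of 16 libraries it was lower in eWAT than in iWAT (-3.40, limma adjusted p = 5.13e-09).

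**Figure D4:**
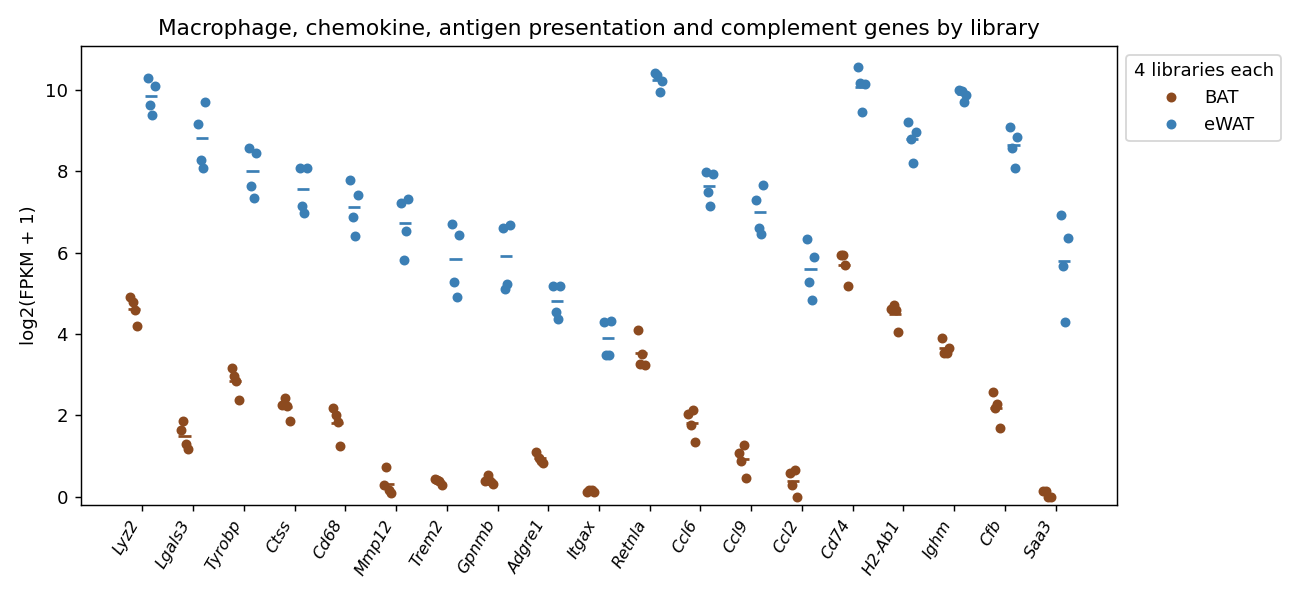
Level, as log2(FPKM + 1), of 19 macrophage, chemokine, antigen presentation, immunoglobulin, complement and acute phase genes in each of the 4 BAT (brown) and 4 eWAT (blue) libraries, with a line at the mean. For every gene shown the BAT libraries lie below the eWAT libraries, with Mmp12, Trem2, Itgax and Saa3 near 0 in BAT.

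Antigen presentation had 17 of 17 tested genes lower, as deposited and scaled, and 4 of the 21 listed were below the level filter. Cd74, the invariant chain of MHC class II, had 60.8, 60.6, 51.0 and 35.0 FPKM in BAT 1 to 4, against 1507, 1156, 699 and 1135 in eWAT 1 to 4 (-4.39), and the class II chain H2-Ab1 differed by -4.31. Of class I, B2m, the light chain found on nearly all cells, differed by -3.17. Of 29 lymphocyte genes 14 were tested, all 14 were lower (12 scaled), and Cd3e, Cd4 and Cd8a were below the level filter. Ighm, the heavy chain of IgM, had 14.0, 10.7, 10.6 and 11.7 FPKM in BAT 1 to 4, against 1030.5, 1005, 842 and 934 in eWAT 1 to 4 (-6.23, limma adjusted p = 6.69e-11). Igkc, the kappa light chain, was irregular, with 3.78, 4.76, 77.0 and 7.62 FPKM in BAT 1 to 4, against 400.2, 324, 60.4 and 126 in eWAT 1 to 4 (-3.93, limma adjusted p = 0.0148). For Igkc the depots overlapped, since BAT 3 stood above eWAT 3. Mast cell proteases were lower too, with differences of -2.14 for Cma1 and -2.22 for Tpsb2, whereas Kit, the mast cell growth factor receptor that other cells also carry, was higher (0.50). S100a8, a calcium-binding protein of neutrophils, differed by -4.12.

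The tested complement and acute phase genes were all lower, 21 of 21, with a median of -3.68 (-3.22 scaled), and 6 of the 27 listed were below the level filter. Cfb, complement factor B of the alternative pathway (chromosome 17, 34856374 to 34862518), had 4.998, 3.54, 3.84 and 2.24 FPKM in BAT 1 to 4, against 548, 378, 270.1 and 458 in eWAT 1 to 4 (-6.46, limma adjusted p = 9.44e-09). Serpina3n, a protease inhibitor of the acute phase with near-identical relatives, had 1.49, 1.65, 1.45 and 0.927 FPKM in BAT 1 to 4, against 399.7, 359, 238 and 325 in eWAT 1 to 4 (-7.11). Saa3, the serum amyloid A of inflamed fat, had 0.105, 0.106, 0 and 0 FPKM in BAT 1 to 4, against 119.8, 49.8, 18.5 and 81.5 in eWAT 1 to 4 (-5.74), a spread among eWAT libraries wider than that of Cfb. C3, the central component of the cascade, was lower by less, at 147 ± 11.1 FPKM in BAT and 465 ± 127 in eWAT (SD, n = 4 each; -1.61). Lysosomal genes, which macrophages are rich in, had 22 of 26 lower and 0 higher (16 and 1 scaled), led by Ctss, the cathepsin of antigen-presenting cells (-5.38).

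The extracellular matrix was lower in BAT as a whole. Of 21 collagens 20 were lower and 1 higher (18 and 1 scaled), with a median of -3.49, and they summed to 199 to 273 FPKM in BAT and 2249 to 2742 in eWAT. Col3a1, the collagen of reticular fibres, had 55.8, 61.9, 48.2 and 42.0 FPKM in BAT 1 to 4, against 724, 693, 515 and 612 in eWAT 1 to 4 (-3.59, limma adjusted p = 1.03e-08). Col1a1, of the main fibrillar collagen, had 6.29, 6.38, 5.57 and 4.54 FPKM in BAT 1 to 4, against 99.2, 89.5, 59.2 and 77.5 in eWAT 1 to 4 (-3.60). Collagen VI surrounds adipocytes in a pericellular mesh. Col6a2 (chromosome 10, 76595762 to 76623630) had 10.9, 11.2, 9.97 and 7.84 FPKM in BAT 1 to 4, against 314, 277, 221 and 268 in eWAT 1 to 4 (-4.63). Col6a1 differed by -4.25, and Col6a3, whose cleaved end is the peptide endotrophin, by -2.46. The basement membrane chains Col4a1 (-2.45) and Col4a2 (-2.40) kept higher levels in BAT than most, 44.9 ± 6.22 and 39.2 ± 7.19 FPKM. The collagen that was higher was Col27a1, a fibrillar collagen of cartilage (chromosome 4, 63214004 to 63334991), with 22.9, 18.8, 12.2 and 15.5 FPKM in BAT 1 to 4, against 0.564, 0.77, 0.585 and 0.613 in eWAT 1 to 4 (3.46, limma adjusted p = 3.32e-08).

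**Figure D5:**
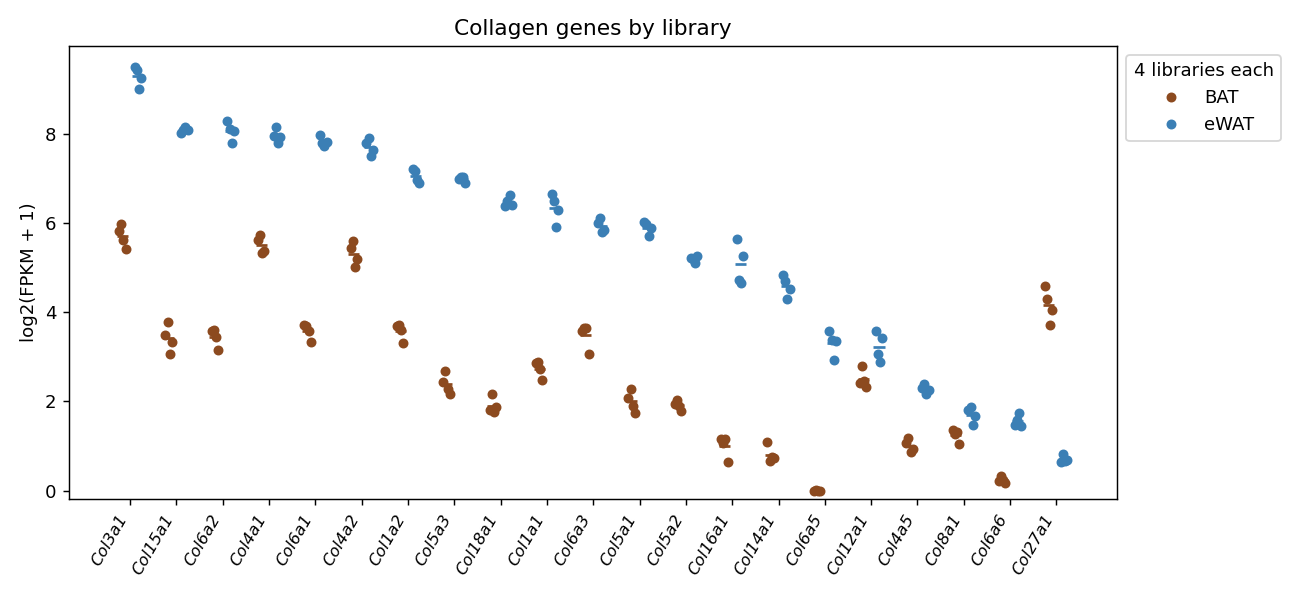
Level, as log2(FPKM + 1), of the 21 tested collagen genes in each of the 4 BAT (brown) and 4 eWAT (blue) libraries, with a line at the mean, ordered by level in eWAT. BAT lies below eWAT for 20 of them and above it for Col27a1, at the right.

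Matrix glycoproteins and proteoglycans had 37 of 39 genes lower and 1 higher (36 and 2 scaled). Fn1, fibronectin (chromosome 1, 71585520 to 71653200), had 7.43, 5.06, 4.36 and 4.55 FPKM in BAT 1 to 4, against 196, 158, 149 and 157 in eWAT 1 to 4 (-4.72, limma adjusted p = 2.36e-09). Sparc, a collagen-binding protein that adipocytes secrete, was among the most abundant of the list, at 345 ± 38.1 FPKM in BAT and 3521 ± 732 in eWAT (SD, n = 4 each; -3.33). Thbs1, thrombospondin 1, differed by -4.13, and Mfap5, a protein of microfibrils, by -4.31. Ltbp2, a microfibril protein related to the binders of latent TGF-beta, was the one that was higher, with 32.7, 36.1, 25.0 and 32.4 FPKM in BAT 1 to 4, against 9.40, 10.5, 10.3 and 14.6 in eWAT 1 to 4 (1.42). Among enzymes and regulators of the matrix, 32 of 33 were lower and 0 higher (29 and 1 scaled). Lox, the oxidase that cross-links collagen, had 6.02, 5.54, 4.53 and 5.75 FPKM in BAT 1 to 4, against 23.3, 23.9, 20.4 and 28.3 in eWAT 1 to 4 (-1.95, limma adjusted p = 1.74e-07). Adamts5, a proteoglycan-cleaving protease, differed by -4.57, and Timp1, an inhibitor of matrix metalloproteinases, by -3.52. The member that did not pass as deposited, Timp3, stood at 40.2 ± 6.22 FPKM in BAT and 40.7 ± 10.5 in eWAT (SD, n = 4 each) and was higher after scaling (0.62).

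Genes of adipocyte progenitors were mostly lower, 19 of 22 against 1 higher (17 and 1 scaled). The receptor Pdgfra, which marks progenitors, was lower (-1.25), as was Sfrp2, a secreted Wnt modulator of fibroblasts (-3.42). Mest, an imprinted gene tied to fat expansion in mice (chromosome 6, 30723547 to 30748465), had 2.67, 1.38, 2.23 and 2.18 FPKM in BAT 1 to 4, against 511, 555, 538 and 694 in eWAT 1 to 4 (-7.54, limma adjusted p = 1.41e-10). Sfrp5, another Wnt modulator that is induced in growing mouse adipocytes (chromosome 19, 42197971 to 42202252), had 1.44, 0.976, 0.74 and 0.664 FPKM in BAT 1 to 4, against 587, 440.0, 355 and 454 in eWAT 1 to 4 (-7.87). Apart from the mitochondrial genes listed at 0, Sfrp5 and Mest had the widest negative gaps among the genes named. Dlk1, the preadipocyte factor, was the member that was higher, at 3.04, 2.94, 4.11 and 3.17 FPKM in BAT 1 to 4, against 0.54, 0.646, 0.362 and 0.337 in eWAT 1 to 4 (1.55).

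Of 22 endothelial genes 4 were higher and 4 lower as deposited (10 and 4 scaled), with a median of 0.01. Pecam1, a junction protein of all endothelium, stood at 33.9 ± 6.30 FPKM in BAT and 34.4 ± 13.2 in eWAT (SD, n = 4 each) and did not pass as deposited (0.03), but was higher after scaling (0.64, limma adjusted p = 0.0224). The VEGF receptors Kdr (1.66) and Flt1 (1.62) were higher in BAT, as was Vegfa. Lower were Lyve1, of lymphatic vessels and some macrophages (-3.27), Plvap, of fenestrated capillaries (-1.97), and Cldn5, a tight junction protein (-1.72). In the list of Schwann cells and innervation 5 of 9 genes were higher and 2 lower (6 and 2 scaled). Its S100b, a calcium-binding protein of glia that brown adipocytes also make, had 139, 132, 125 and 132 FPKM in BAT 1 to 4, against 1.82, 2.90, 3.07 and 1.66 in eWAT 1 to 4 (5.33, limma adjusted p = 9.67e-10), and Clstn3, a calsyntenin whose locus encodes an adipocyte-specific product in mice, differed by 3.20. Lower were Pmp22, a myelin protein also made outside nerve (-2.67), and Scn7a, a sodium channel (-2.49). Of 10 genes of smooth muscle and pericytes 4 were higher and 4 lower (5 and 3 scaled). Pericyte genes Rgs5 (1.58) and Abcc9 (1.62) were higher and Acta2, smooth muscle actin, lower (-3.26).

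Of 25 tested genes of body position 5 were higher and 17 lower (8 and 11 scaled), shares near those of all genes. Higher in BAT were Hoxa4 (1.96), Hoxa5 (1.63) and Zic1. Lower was Hoxc8 (chromosome 15, 102990607 to 102994111), a homeobox gene of the trunk, with 1.31, 1.68, 2.88 and 1.64 FPKM in BAT 1 to 4, against 39.2, 43.8, 48.8 and 46.4 in eWAT 1 to 4 (-4.01, limma adjusted p = 8.34e-09). In retinoid metabolism 10 of 14 were lower and 3 higher (9 and 4 scaled). Aldh1a1, which makes retinoic acid, stood at 2.34 to 7.47 FPKM in BAT and 97.7 to 121 in eWAT, and Rbp4, the carrier of retinol, differed by -4.00, while the receptor Rarb was higher (1.72). Cell cycle genes were low in both depots and lower in BAT for 13 of 13, scaled or not, with Cdk1, the kinase of mitosis, at 0.465, 0.264, 0.15 and 0.181 FPKM in BAT 1 to 4, against 8.81, 10.02, 6.52 and 12.5 in eWAT 1 to 4. Of 19 stress genes 14 were lower and 0 higher as deposited but 8 and 4 after scaling, with Atf3, an early stress factor, at -2.89 and -2.40 scaled. Transcripts of other tissues were set beside these: blood genes had 6 of 8 lower as deposited and 1 after scaling, and the tested skeletal muscle genes had 2 of 13 higher, with a median of 1.94. Skeletal muscle genes summed to 196, 175, 3962 and 3312 FPKM in BAT 1 to 4, and to 98.0 to 182 in eWAT. Lymph node stroma genes summed to 0.90 to 4.29 FPKM in BAT and 57.7 to 109.9 in eWAT, with 3 of 3 tested lower. Skin genes summed to 3.42 to 5.67 FPKM in BAT and 68.6 to 86.9 in eWAT, with 2 of 2 tested lower. Of epididymis and testis genes 2 of 4 tested were lower (1 scaled). The part of lymph node and skin transcripts in the other lists was not tested.

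The eWAT libraries were also compared with those of iWAT, a subcutaneous white depot. This comparison uses the same eWAT libraries, so its values stand beside the others as a description. Its fit takes in the thigh libraries, whose spread enters its p-values. A gene that did not pass is thus not shown to be alike in eWAT and iWAT. In a single limma fit of the 16 libraries, 1270 of 15019 genes (8.46%) were higher in eWAT and 826 (5.5%) lower. Of the 24 mesothelial and visceral genes 19 were higher in eWAT and 1 lower. Upk3b averaged 17.5 ± 1.99 FPKM in eWAT and 0.034 ± 0.0116 in iWAT (SD, n = 4 each; eWAT minus iWAT 4.16, limma adjusted p = 2.59e-14), and Msln differed by 4.12. Wt1 and Tcf21 were listed at 0 in the iWAT libraries as in BAT. Of the 24 macrophage genes 18 were higher in eWAT and 0 lower, and of the 18 lipid-associated macrophage genes 12 and 0. Mmp12 averaged 114 ± 49.2 FPKM in eWAT and 16.1 ± 12.2 in iWAT (2.88, limma adjusted p = 0.00783), and Trem2 64.3 ± 36.5 FPKM in eWAT and 11.2 ± 8.72 in iWAT (2.48, limma adjusted p = 0.00465).

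The immune and matrix lists differed in how far eWAT stood apart from iWAT. Of the 26 lysosomal genes 17 were higher in eWAT and 0 lower, of the 24 inflammatory mediators 9 and 1, of the 39 matrix glycoproteins and proteoglycans 10 and 2, and of the 21 complement and acute phase genes 5 and 2. Other lists had little or no excess in eWAT. Of the 14 lymphocyte genes 0 were higher in eWAT and 1 lower, and of the 8 granulocyte and mast cell genes 2 and 4. The mast cell proteases Tpsb2 (-0.57, limma adjusted p = 0.018) and Cma1 (-0.58, limma adjusted p = 0.0423) were lower in eWAT. Of the 33 matrix enzymes and regulators 8 were higher and 5 lower, and of the 22 progenitor genes 1 and 2. In limma 0 of the 17 antigen presentation genes passed, 6 had an unadjusted p under 0.05, and Cd74 differed by 0.57 (limma adjusted p = 0.112). Cfb had 414 ± 118 FPKM in eWAT and 375 ± 45.8 in iWAT (0.10, limma adjusted p = 0.758), and Lep 1602 ± 161 FPKM in eWAT and 1535 ± 496 in iWAT (0.11, limma adjusted p = 0.756). Agt, in contrast, was higher in eWAT, at 109 ± 24.3 FPKM in eWAT and 13.6 ± 5.53 in iWAT (3.0, limma adjusted p = 5.17e-06). Of the 21 collagens 9 were higher in eWAT and 2 lower. Col6a2 was higher (0.80, limma adjusted p = 0.0119), whereas Col6a3 (-0.88, limma adjusted p = 0.00149) and the cross-linking enzyme Lox (-0.98, limma adjusted p = 0.00203) were lower in eWAT than in iWAT. Col1a1 did not pass (-0.65, limma adjusted p = 0.0843).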

How the data were processed

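The authors deposited FPKM per gene (46386 entries, 46206 symbols), made per the submitters' processing notes with TopHat, TopHat2 2.0.9 and Cufflinks 2.1.1 on mm10; annotation, settings and strand handling: not given in the sources used here. Per the labels' protocols, Trizol extracts of frozen tissue went into TruSeq libraries of total RNA. Depth is unknown, so no counting interval was computed. Libraries were grouped by their titles, and 0 pairs were identical. Zeros can be failed estimates and are given as listed.

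From the deposited FPKM, log2(FPKM + 1) was computed, and BAT was compared with eWAT by limma 3.58.1 (R 4.3.3; trend and robust) on 13996 genes, without covariates. Scaling divided each library by its median-of-ratios size factor. A single fit of 16 libraries gave eWAT against iWAT. On a simulated BAT against eWAT table of 13996 genes, limma found 88% of 100 genes shifted by 1 and 98% of 100 shifted by 2 (log2), with 9 false calls among 195. The shifted genes all lay well above the level filter, and no library-wide shift was added. These rates therefore do not cover low genes or the effect of scaling. Alternatives were other pseudocounts, filters, scalings and fits, and left-out libraries.

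The 40 gene lists and the genes were chosen with earlier results of these data known, and lists were counted, not tested. Of a list's genes the largest differences each way were named, besides the 12 largest overall each way, a fixed set of depot markers, and related pairs that differ in opposite directions. Named outside that rule, after their values were seen, were B2m, C1qc, C3, Col4a1, Col4a2, Col6a1, Cox6a2, Krt8, Krt18, Ldha, Lipa, Muc16, Pecam1, Plin2, Pparg, Prr15, Sparc, Timp3, Upk1b and the genes given for library content. Gene spans are from GENCODE vM21 and promoters from RefSeq, both on the same build as mm10. Near-identical copies (Fabp3, Atp5g1, Serpina3n, haemoglobin and immunoglobulin genes) and overlapping genes are uncertain. Figures were drawn with matplotlib 3.10.9 in python 3.11.15. Some genes are not reported here.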

Additional observations from a re-analysis of the deposited data

Results flagged for a closer look

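Of 291 sets of 4 libraries tested for a single value apart from the other 3, 12 stood out, and chance gives about 1 in 20. In BAT 3, Slc7a10 was high at 8.79 FPKM (others 2.73 to 3.22), and Gpd1 was low at 2276 (others 2805 to 2871). In BAT 4, Sncg was low at 18.6 FPKM (others 27.4 to 29.1) and Col6a3 at 7.37 (others 10.95 to 11.5). In BAT 1, Cox7a1 was high at 3352 FPKM (others 2737 to 2807) and C3 at 164 (others 140.5 to 143). Among eWAT libraries, eWAT 1 was high for Atp5g1 at 133 FPKM (others 96.7 to 99.9) and for Prm1 at 24.5 (others 1.10 to 2.08). The library eWAT 3 was high for Rbp4 at 943 FPKM (others 733 to 760.3) and for Pdgfra at 7.67 (others 5.62 to 5.93), and its Scd1 was listed at 0 (others 4233 to 6173). In eWAT 4, Cma1 was low at 4.23 FPKM (others 7.46 to 7.65). Apart from Scd1, each of these genes kept its direction between the depots when that library was left out.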

How the results depend on the processing

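Under 19 other settings, 1 of them chosen after seeing the data, the split of all genes followed the scaling. Median-of-ratios scaling gave 4808 genes higher and 5167 lower in BAT, and quantile normalization 5418 and 4770, against 2229 and 8554 as deposited. Both scalings left 8 cholesterol genes lower, against 17. Under a filter of 5 FPKM fewer genes were tested, and 13 inflammatory mediators, 3 lymphocyte genes and 14 mesothelial genes were lower. Leaving out each library in turn gave 2062 to 2375 genes higher and 8221 to 8533 lower. Without filter the counts were 2920 and 10913. Some genes that did not pass changed sign: Adrb3 was at 0.31 (scaling), 0.20 (quantile), 0.024 (without BAT 3 and 4) and 0.13 (without eWAT 3 as well), and Lipa at 0.39 (scaling) and 0.34 (quantile). Leaving out each library gave -0.17 to 0.26 for Pecam1, -0.0082 to 0.23 for Plin2, -0.028 to 0.16 for Pparg, -0.11 to 0.14 for Timp3 and -1.58 to 2.62 for Scd1. Scd1 was at -1.58 with such zeros treated as missing and at -1.87 without BAT 3, BAT 4 and eWAT 3; the cause was not tested. Same-numbered libraries were little correlated (correlations of deviations 0.23, 0.0037, -0.08 and 0.07), which cannot tell whether they share a mouse. A fit with the replicate block gave 2299 higher and 8605 lower and lost Igkc (limma adjusted p = 0.0879) and Prm1 among the genes named. Unknown depth and 4 libraries a depot limit the precision of low genes.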
